A study of Mus musculus with 4 samples.

Results

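The cells described here were luminal epithelial cells of the mouse mammary gland in which RNA of the luminal progenitor programme and RNA of the mature luminal programme were counted in the same barcode. They were selected on their counts. A barcode entered the set when at least 3 of 5 progenitor genes (Cd14, Lalba, Plb1, Atp6v1b1 and Aldh1a3) and at least 3 of 6 mature luminal genes (Stc2, Upk3a, Plac8, Tspan1, Prlr and Cited1) each had at least 1 count, and when at most 2 of 7 basal genes (Krt5, Krt17, Acta2, Myl9, Tagln, Mylk and Cnn1) did. This rule found 250 of 10596 barcodes, here called dual-programme cells. They were compared with 1661 progenitor-type cells, which had at least 3 progenitor genes and at most 1 mature gene, and with 3409 mature-type cells, which had at least 3 mature genes and at most 1 progenitor gene, under the same basal limit and within the same library.

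The study profiled single mammary epithelial cells of female FVB/NJ mice on a droplet platform that counts the 3′ ends of transcripts. The puberty library came from mice of 5 weeks, and the estrus and diestrus libraries came from adult mice of 10 weeks staged by vaginal cytology. All groups were untreated total epithelium, sorted as CD24+ cells without the lineage antigens Ter119, CD31 and CD45. Each library pooled cells of more than 1 mouse. There was 1 library per stage, so differences between stages had no replicate check. The libraries held 5428 barcodes in puberty, 2729 in estrus and 2439 in diestrus, with median totals of 4103, 3236 and 3974 counts per barcode. A second puberty table shared 5387 barcodes with the first, the number of cells given in its labels, and was therefore not used as a replicate. Between different libraries 13 to 24 barcode sequences were shared.

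The mammary duct has an outer basal layer of contractile cells and an inner luminal layer. Luminal progenitors carry Elf5 and Kit and are the source of the milk-secreting alveolar cells, whereas mature luminal cells carry the receptors for estrogen and progesterone and signal to their neighbours through secreted factors such as amphiregulin, Wnt4 and Rankl. Luminal cells with features of both compartments are of interest because they could lie on the path between them.

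Dual-programme cells were a small minority at each stage. The puberty library held 128, the estrus library 71 and the diestrus library 51. As a share of all barcodes of the library they were 2.36% at puberty (95% exact binomial interval 1.97 to 2.80), 2.60% at estrus (2.04 to 3.27) and 2.09% at diestrus (1.56 to 2.74). These intervals overlapped and covered counting error only. Barcodes with at least 3 basal genes made up 22.6%, 49.1% and 44.8% of the libraries. Among cells with at least 3 progenitor genes and few basal genes, 10.3%, 17.6% and 14.8% were dual-programme cells in puberty, estrus and diestrus. The intervals were 8.64 to 12.1, 14.0 to 21.6 and 11.2 to 19.0, and those of puberty and estrus did not overlap. Among cells with at least 3 mature genes the shares were 5.67%, 8.18% and 7.11%. Their intervals of 4.75 to 6.70, 6.44 to 10.2 and 5.34 to 9.25 overlapped. These too covered counting error only. None of the 7 basal genes had a count in 101, 45 and 32 of the dual-programme cells.

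The counts of rule genes around the limits are given as a description, since they chose the cells. Across the 3 libraries, the cells with at least 3 progenitor genes numbered 1194 with no mature gene, 467 with 1, 84 with 2, 63 with 3, 106 with 4, 73 with 5 and 8 with all 6. Seen from the other side, cells with at least 3 mature genes fell from 2878 with no progenitor gene to 531, 185, 143, 80 and 27 with 1 to 5 of them. The first series fell to 63 at 3 mature genes, was higher at 4 and lowest at 6, while the second fell at every step. By library the first series dipped at 3 mature genes in puberty (43 cells) and diestrus (8 cells) and at 2 in estrus (10 cells). The cells just inside the rule, with exactly 3 genes of each programme, numbered 21, 8 and 6 and had median totals of 5068, 4606 and 6867 counts in puberty, estrus and diestrus. Just outside it, 64, 10 and 10 cells had at least 3 progenitor genes with 2 mature genes, with median totals of 4908, 3850.5 and 5374, and 100, 49 and 36 cells had at least 3 mature genes with 2 progenitor genes, with median totals of 6974, 5333 and 7411. At least 4 genes of each programme were detected in 28, 32 and 19 cells.

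**Figure D1:**
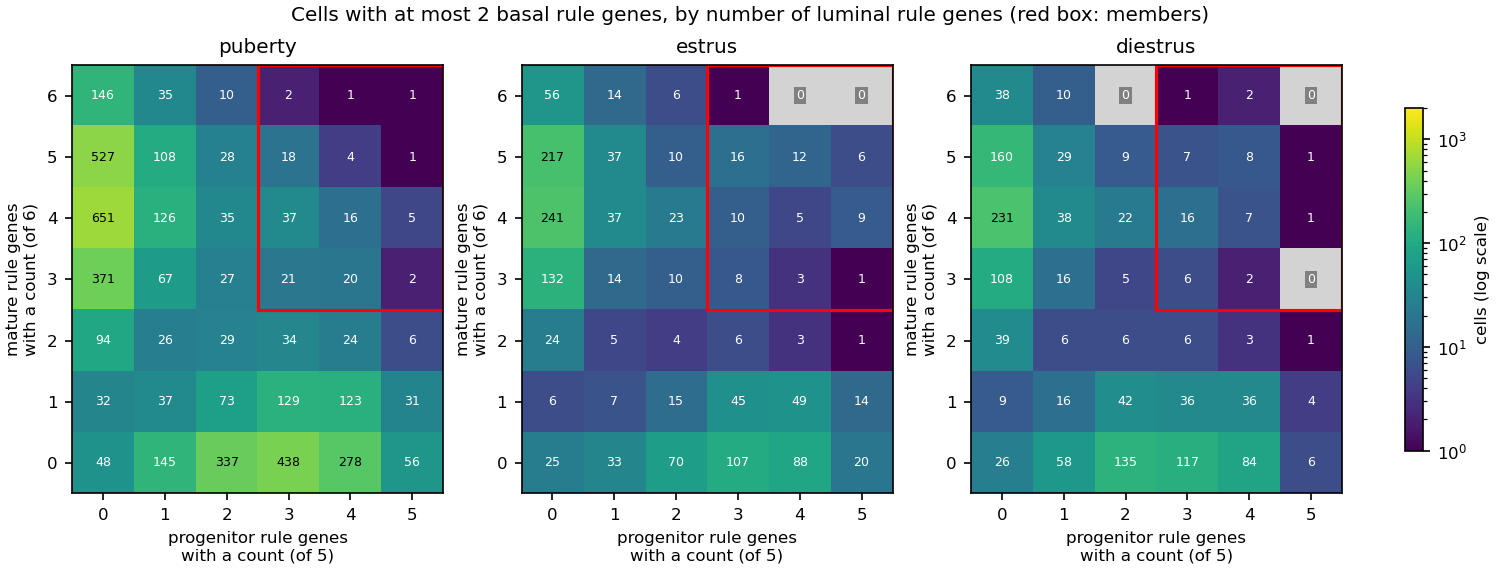
Number of cells with at most 2 basal rule genes, by the number of progenitor rule genes (horizontal axis, 0 to 5) and mature rule genes (vertical axis, 0 to 6) that had a count, in each library; colour is the cell number on a log scale, grey is 0, and the red box holds the dual-programme cells. Most cells lie along the left and bottom edges, and the boxes hold 128, 71 and 51 cells.

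The rule genes themselves are given as a description, since they chose the cells. Cd14, the co-receptor for bacterial lipopolysaccharide, had a count in 92.2%, 87.3% and 96.1% of dual-programme cells at puberty, estrus and diestrus, at 944, 763 and 477.8 CPM (counts of the gene scaled to a common library total). Its level in progenitor-type cells was 1616, 1804 and 1293 CPM and in mature-type cells 43.8 CPM in puberty and 38.2 CPM in each adult library. Lalba, the regulatory subunit of lactose synthase, was counted in 93.8%, 87.3% and 68.6% of the cells at 1913, 1703 and 1675 CPM, against 5028, 4265 and 2752 CPM in progenitor-type cells. Stc2, a secreted glycoprotein, was counted in 89.1%, 91.5% and 92.2% of the cells at 611.7, 686.9 and 663 CPM, against 1421, 1005 and 1015 CPM in mature-type cells. Each of these 3 genes thus stood below its own type and far above the other. Upk3a, a uroplakin of apical membranes, was found in only 21.9%, 21.1% and 19.6% of dual-programme cells, and in 34.8%, 29.0% and 24.0% of mature-type cells, so no count of this marker was found in most cells of either class. Of the other rule genes, Prlr, the prolactin receptor, and Cited1, a transcriptional co-regulator, were counted in at least 92.2% of the cells in every library, whereas Aldh1a3, a retinaldehyde dehydrogenase, was counted in 32.0% to 39.4%.

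Dual-programme cells had larger libraries than either type. Their median total was 7058 counts in puberty, 6681 in estrus and 7229 in diestrus. This was 1.70, 1.82 and 1.64 times the median of progenitor-type cells (4147, 3664 and 4414) and 1.48, 1.59 and 1.62 times that of mature-type cells (4772, 4207 and 4458). It lay below the sum of those medians, which was 8919, 7871 and 8872. The mean total was 75.9%, 82.4% and 76.3% of the sum of the means of the types. In all, 18, 8 and 10 dual-programme cells had totals at or below the median of the comparison cells. Thinning to 2000 counts left out cells below that total, here and in the other thinned results. When the remaining 4831, 2209 and 2106 cells were thinned before the rule was applied, their dual-programme share was 0.455%, 0.634% and 0.665%. The rule asks for at least 3 detected genes of each programme, so it favours high totals and loses cells on thinning. The higher totals and the lower shares therefore follow in part from the rule.

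A doublet, that is, 2 cells captured in 1 droplet, would also hold both programmes. The doublet caller Scrublet marked 24 of the 128 puberty cells (18.8%), 1 of the 71 estrus cells and none of the 51 diestrus cells, against 6 mature-type cells and no progenitor-type cell in puberty and none of either type in the adult libraries. Over all barcodes it marked 2.49%, 1.28% and 1.15%. Basal cells gave a count of how often a basal and a luminal programme met in 1 barcode by the same kind of rule. Among 1229, 1339 and 1092 barcodes with at least 3 basal genes, 2.28%, 0.822% and 0.824% also had at least 3 progenitor genes, and 5.53%, 1.64% and 2.84% also had at least 3 mature genes. These barcodes had median totals of 6203 to 8317 counts, where all basal cells had medians of 2583 to 3452. The part of doublets in the dual-programme set was not tested beyond these values, and doublets and single cells with both programmes cannot be told apart in the counts of a barcode alone.

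**Figure D2:**
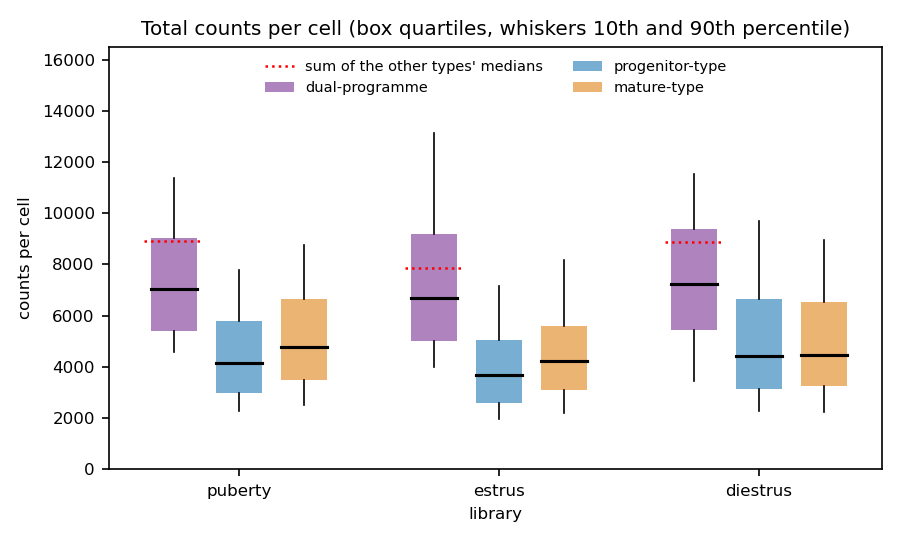
Total counts per cell (linear axis from 0) in dual-programme, progenitor-type and mature-type cells of each library; boxes are quartiles, black lines medians, whiskers the 10th and 90th percentiles, and the dotted red line the sum of the progenitor-type and mature-type medians. The dual-programme medians of 7058, 6681 and 7229 lie above both types and below the dotted lines of 8919, 7871 and 8872.

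Genes of the same programmes that the rule did not use were then examined. Of 6 progenitor markers (Elf5, Kit, Trf, Csn3, Wfdc18 and Ltf) and 6 mature markers (Esr1, Pgr, Foxa1, Ptn, Areg and Ly6d), at least 2 of each were counted in 120 of 128 puberty cells of the dual-programme set (93.8%), in 68 of 71 estrus cells (95.8%) and in 50 of 51 diestrus cells (98.0%). The same was true of 7.87%, 5.88% and 11.0% of progenitor-type cells and of 8.96%, 3.88% and 4.92% of mature-type cells. With every cell thinned to 2000 counts after the classes were set, the shares in dual-programme cells were 87.4%, 84.3% and 86.0%. In progenitor-type cells they were 2.63%, 2.43% and 2.27%, and in mature-type cells 4.56%, 3.03% and 2.88%. The comparison types were limited to at most 1 rule gene of the other programme, so their low shares followed in part from the rule. Trf, which encodes transferrin, and Ptn, which encodes the growth factor pleiotrophin, are abundant genes of opposite programmes, and both were counted in 121 of 128, 71 of 71 and 50 of 51 cells. In progenitor-type cells the pair was found in 17.3%, 13.3% and 28.3%, and in mature-type cells in 24.3%, 11.9% and 12.1%. The kappa-casein gene Csn3 and Areg, which encodes amphiregulin, were counted together in 74.2%, 42.3% and 41.2% of dual-programme cells. Transcription factor RNA is sparse at this depth. Elf5 and Foxa1, which mark the progenitor and mature compartments, were counted together in 7, 12 and 8 cells, and Elf5 and Esr1, the estrogen receptor gene, in 3, 6 and 5.

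The balance of the programmes within a cell was measured as the progenitor share, the counts of 15 progenitor genes outside the rule as a percentage of their counts and those of 15 mature genes outside the rule. The median progenitor share of dual-programme cells was 66.9% at puberty (95% order-statistic interval over cells 62.9 to 73.5), 61.0% at estrus (51.0 to 65.9) and 61.5% at diestrus (57.9 to 66.7). These intervals covered the spread of cells within 1 library only, and cells are not replicates of a stage. The same share over the rule genes had medians of 52.4%, 34.0% and 36.4%, so the side of the balance in the adult libraries depended on the genes used. On the genes outside the rule, progenitor-type cells stood at 99.7%, 100% and 99.3%, and mature-type cells at 1.71%, 0.758% and 1.39%. A share between 20% and 80% was found in 89 of the puberty cells (69.5%), 54 of the estrus cells (76.1%) and 43 of the diestrus cells (84.3%). At most 0.353% of progenitor-type and 4.43% of mature-type cells lay in that range in any library, which followed in part from the rule. Of barcodes with at least 3 basal genes 58.5%, 65.4% and 64.9% did, so the range alone did not mark cells with both luminal programmes. The spread among dual-programme cells was wide. The quartiles of the puberty, estrus and diestrus cells were 54.9% and 82.2%, 44.7% and 78.2%, and 53.3% and 70.5%, and single cells reached from 4.49% to 100%, 16.1% to 94.6% and 0.585% to 90.6%. A share over 80% was seen in 37, 16 and 5 cells and one under 20% in 2, 1 and 3 cells. Without the cells that Scrublet marked the medians were 65.1%, 60.7% and 61.5%. In the 18, 8 and 10 cells with totals no larger than the comparison median they were 74.1%, 45.5% and 59.0%.

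The same balance was compared with the plain sum of the types. Per cell, dual-programme cells held on average 179.7, 149.9 and 130.7 counts of the progenitor genes, which was 72.1%, 80.9% and 87.5% of what a mean progenitor-type and a mean mature-type cell held together. They held 75.5, 83.2 and 75 counts of the mature genes, which was 73.4%, 90.3% and 83.1% of that sum. The progenitor share computed from these means was 70.4%, 64.3% and 63.6% in dual-programme cells and 70.8%, 66.8% and 62.3% in the sum of the types. The balance of the dual-programme cells was therefore close to that of the summed types, with the higher value on the side of the sum in puberty and estrus and of the dual-programme cells in diestrus.

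**Figure D3:**
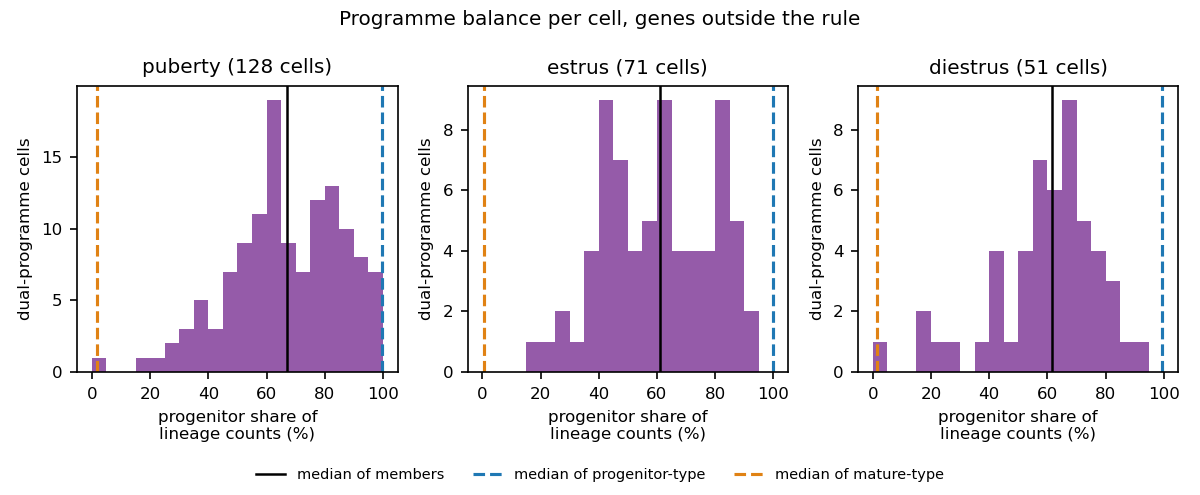
Histogram of the progenitor share of lineage counts (horizontal axis, %, genes outside the rule) over the dual-programme cells of each library (vertical axis, number of cells); the black line is their median, and the dashed blue and orange lines are the medians of progenitor-type and mature-type cells. The medians of 66.9%, 61.0% and 61.5% lie between the types, with cells spread over most of the axis.

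Levels were next compared over summed counts of each class and library, normalized for library composition (normalized CPM). The rule separated the classes by luminal genes, so differences from a single type are a description of the selected cells and their counts support nothing further. Of 8600 genes tested, 817 were higher (9.50%) and 677 lower (7.87%) in dual-programme than in progenitor-type cells, and 861 were higher (10.0%) and 429 lower (4.99%) than in mature-type cells by edgeR at an adjusted p under 0.05. In the same order the counts were 492, 338, 573 and 234 without the puberty library and 509, 284, 602 and 151 without the estrus library, and without the diestrus library 264 genes were lower than in mature-type cells. With members no larger than the comparison medians 141 genes were higher and 439 lower than in progenitor-type cells, and 229 higher and 489 lower than in mature-type cells, so that lower genes outnumbered higher ones. The median log2 fold change over all genes was -0.01 in each comparison. Genes that differed at least 8-fold between the types themselves were picked from the same sums. In dual-programme cells the level lay between the types for 84.7% to 94.8% of 366 progenitor-high genes, depending on the library. For 251 mature-high genes it did for 78.9% to 92.0%. The rule set the classes apart on both programmes, so this order followed in part from the selection. Over all 8600 genes, fold changes placed 2300 below progenitor-type and above mature-type cells and 2310 the other way. The median level of the progenitor-high genes was 43.5%, 43.7% and 52.7% of that in progenitor-type cells in puberty, estrus and diestrus. That of the mature-high genes was 54.6%, 60.1% and 62.9% of that in mature-type cells. As counts per cell, not scaled to totals, the medians were 81.6%, 85.8% and 77.1% for the progenitor-high genes. For the mature-high genes they were 72.4%, 85.0% and 91.0%.

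Of the 15 progenitor genes outside the rule, 12 were abundant enough to test. Of these 11 were lower than in progenitor-type cells, with a median log2 fold change of -1.10. All 12 were higher than in mature-type cells, with a median of 4.74. Over all genes tested, 7.87% and 10.0% were. Trf was measured at 13690, 10011 and 7452 normalized CPM in puberty, estrus and diestrus, against 33253, 22436 and 11654 in progenitor-type and 238.5, 209.6 and 115.8 in mature-type cells. Lcn2, which encodes the iron-scavenging protein lipocalin 2, was at 3403, 1984 and 2463, between 8070, 5380 and 3646 in progenitor-type cells and 68.5, 51.9 and 48.0 in mature-type cells. The same order held in each library for both genes. Elf5, the transcription factor that drives alveolar differentiation, was at 137.4, 229.6 and 151.6, which was 37.3%, 38.0% and 42.8% of the progenitor-type level. Kit, the receptor for stem cell factor, was at 24.8, 33.6 and 22.4, which was 47.1%, 77.2% and 63.3% of that level and rested on 22, 19 and 9 counts. Itga2, Itgb3 and Rspo1 were too sparse to test.

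Milk genes, which summed to 28161, 16064 and 16064 CPM in dual-programme cells and to 77670, 54376 and 30875 CPM in progenitor-type cells, followed the progenitor genes. Of 9 listed genes 8 were tested. All 8 were lower than in progenitor-type cells (median log2 fold change -1.43) and higher than in mature-type cells (median 6.09). Over all genes tested, 7.87% and 10.0% were. Spp1, which encodes osteopontin, was at 14266, 7475 and 11342 normalized CPM, or 31.9%, 28.5% and 53.0% of the progenitor-type level. Csn2, the beta-casein gene, was at 3715, 764.8 and 753.1, or 26.4%, 12.1% and 42.9%. Csn3 was at 4292, 2930 and 2438, or 35.9%, 35.6% and 68.2%. For these 3 genes the fraction of the progenitor-type level was highest in diestrus. Glycam1 was not tested.

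Of the 15 mature genes outside the rule 13 were tested. All 13 were higher than in progenitor-type cells (median log2 fold change 4.24) and 7 were lower than in mature-type cells (median -0.59). Over all genes tested, 9.50% and 4.99% were. Ptn was at 5015, 6586 and 5346 normalized CPM, against 63.4, 52.6 and 88.4 in progenitor-type and 8741, 9772 and 9410 in mature-type cells, so it kept 57.4%, 67.4% and 56.8% of the mature-type level. Areg, the ligand through which estrogen drives ductal growth, was at 1583, 199.6 and 464.8, or 51.5%, 33.5% and 25.7% of the mature-type level. Prom1 and Ly6a, which encode surface antigens used to sort hormone receptor-positive luminal cells, were at 47.7% to 69.8% and 52.7% to 76.1% of it. Esr1 was at 16.9, 15.9 and 22.4 normalized CPM, against 24.7, 22.7 and 21.8 in mature-type cells. Pgr, the progesterone receptor, was at 32.7, 10.6 and 42.3, against 49.2, 20.6 and 32.0. Foxa1, the pioneer factor of the estrogen receptor, was at 40.6, 38.9 and 34.8, against 47.9, 75.6 and 55.3. The differences of these 3 genes from mature-type cells did not pass the threshold, with adjusted p of 0.41, 0.44 and 0.055, and the dual-programme values rested on 6 to 36 counts a library. Tnfsf11, which encodes Rankl, and Calca were too sparse to test.

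**Figure D4:**
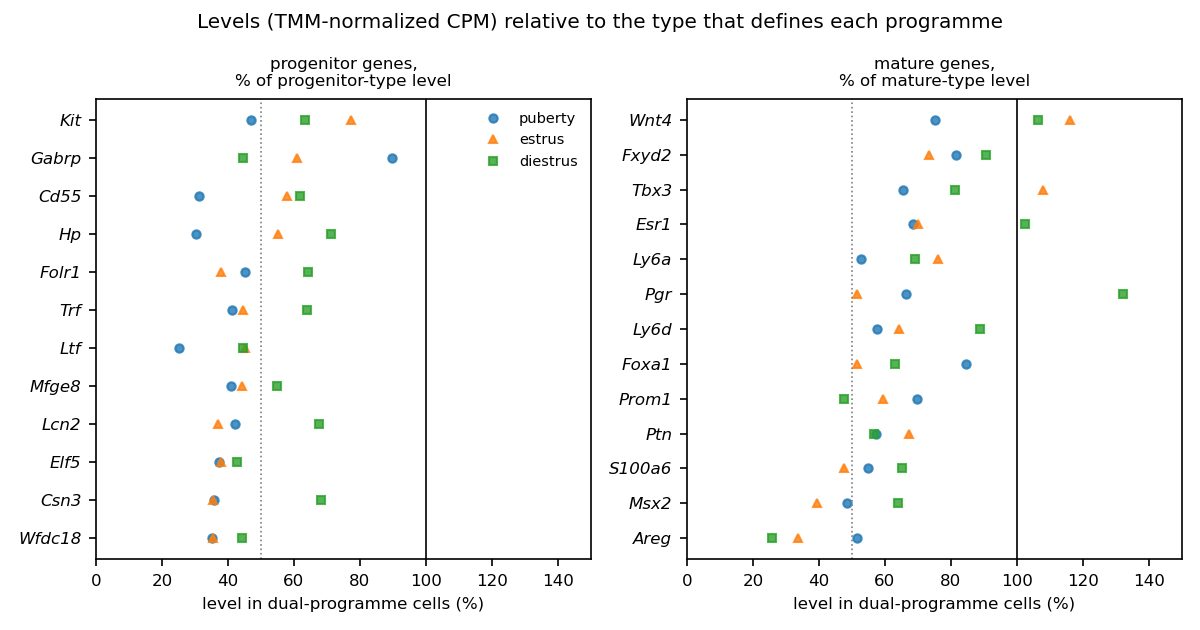
Level in dual-programme cells of each tested progenitor gene as a percentage of the progenitor-type level (left) and of each tested mature gene as a percentage of the mature-type level (right), from normalized CPM; symbols are the 3 libraries, and the lines mark 50% and 100%. All progenitor values lie below 100%, and the mature values above 100% belong to Wnt4, Tbx3, Esr1 and Pgr.

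Genes named by rank among all genes outside the rule, some of them also on the lists above, had the same intermediate form. With the smallest adjusted p, the genes above progenitor-type cells were, beside Ptn, Gpx3, a secreted glutathione peroxidase (log2 fold change 5.80), Fgg, a fibrinogen chain (5.46), Wfdc2 (5.24) and Gipc2 (6.10), and those below them were Cbr2, a carbonyl reductase (-1.51), Mgst1, a glutathione transferase (-1.34), Plet1 (-1.26), Tspan8 (-1.44) and Csf3, a granulocyte growth factor (-1.86). By the same rank the genes above mature-type cells were Trf, Lcn2, Csn3, Spp1 and the nucleoside transporter gene Slc28a3 (5.92). Those below them were, beside Areg, Cdo1 (-1.25), the fibrinogen genes Fgb (-1.43) and Fgg (-1.28), and Cenpa (-1.56), a centromere protein gene. Except for Cenpa, every gene in this group was between the types in all 3 libraries. Fgg, for example, stood at 815.6, 399.2 and 206.3 normalized CPM, between 18.5, 7.63 and 4.58 in progenitor-type and 1703, 953.1 and 632.5 in mature-type cells.

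Of 22 listed transcription factors 20 were tested. Of these 6 were higher and 7 lower than in progenitor-type cells, where 9.50% and 7.87% of all genes were, and 8 were higher and 1 lower than in mature-type cells, where 10.0% and 4.99% were. In value 9 lay below progenitor-type and above mature-type cells, 6 the other way, 4 above both and 1 below both, and none passed the threshold against both in the same direction. Hey1, a target of Notch signalling, was at 67.6, 144.8 and 89.5 normalized CPM, between 138.5, 314.3 and 221.9 in progenitor-type and 1.70, 4.03 and 1.46 in mature-type cells. Sox10, a factor of progenitor cells, was at 31.5, 23.0 and 34.8, between 72.3, 54.2 and 50.4 and 0.942, 1.18 and 1.75. Msx2, a homeobox factor, was at 42.8, 28.3 and 62.1, between 3.34, 0.763 and 0 in progenitor-type and 88.4, 71.8 and 97.2 in mature-type cells. Gata3, which is needed for luminal identity, was at 122.8, 224.3 and 211.3 and did not differ from either type at the threshold (adjusted p = 0.064 and 0.56). Of 12 Notch pathway genes 6 were tested. Hey1 and Nrarp were lower than in progenitor-type cells, these and Notch1 were higher than in mature-type cells, and Notch3, Hes1 and Rbpj passed neither comparison.

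All 12 listed genes shared by luminal cells were tested. Of these 2 were higher and 5 lower than in progenitor-type cells, where 9.50% and 7.87% of all genes were. Against mature-type cells 1 was higher and 2 lower, where 10.0% and 4.99% of all genes were. The median log2 fold changes were -0.11 and 0.03 over members that went both ways. Krt8, a luminal keratin, was at 4712, 3389 and 2901 normalized CPM in dual-programme cells, at 5188, 3980 and 2917 in progenitor-type cells and at 5233, 4196 and 3100 in mature-type cells. Krt18, its partner, was at 10644, 8831 and 6699, and neither keratin differed from either type at the threshold (adjusted p of 0.17 to 0.95). Krt7 and Krt19 were higher than in progenitor-type and lower than in mature-type cells. Epcam, used to sort luminal cells, was lower than in progenitor-type cells (log2 fold change -0.45). Of 11 sort antigens 9 were tested, and the integrin genes Itgb1 and Itga6 and the sorting antigen gene Cd24a passed neither comparison. Of 6 genes that the study linked to intermediate luminal cells, a choice made on related samples and therefore no independent evidence, 4 were tested. In value 3 of the 4 were above both types. None passed the threshold against progenitor-type cells, and Jund, an AP-1 subunit, was the only one that passed it against mature-type cells (log2 fold change 0.92).

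Few genes set dual-programme cells apart from both types. Of 8600 genes, 12 were above both (0.140%) and 30 were below both (0.349%) at an adjusted p under 0.05 in each edgeR comparison. At an unadjusted p under 0.05 in each the counts were 62 and 141, and with every cell thinned to 2000 counts they were 1 and 5 at the adjusted threshold. The rule acted on the same cells, so the p-values set a class difference against its spread over libraries in cells already selected. Differences between libraries as such were taken up by the library term.

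The genes above both types were sparse. Gm12216, an uncharacterized locus on chromosome 11, was at 14.6, 44.2 and 47.2 normalized CPM in puberty, estrus and diestrus, from 13, 25 and 19 counts, against 4.36, 19.1 and 14.4 in progenitor-type and 8.95, 22.7 and 12.5 in mature-type cells. The dual-programme level was the highest of the 3 classes in each library. Its log2 fold changes were 1.53 (SE 0.32, adjusted p = 0.0038) and 1.15 (SE 0.29, adjusted p = 0.013). Gm16586, another uncharacterized locus, was at 10.1, 17.7 and 12.4, from 9, 10 and 5 counts. Its log2 fold changes were 1.30 and 1.57, with adjusted p of 0.042 and 0.012. Ltbp3, which encodes a binding protein of latent TGF-beta, was at 45.1, 51.2 and 47.2, against 27.2, 32.0 and 20.9 and 30.0, 30.8 and 25.6, and thus was highest in each library (log2 fold changes 0.83 and 0.71, adjusted p = 0.011 and 0.021). The others were Trim41 and Taok1, which encode a ubiquitin ligase and a kinase, Crtc3, Med1 and Zbtb4, which encode a transcriptional co-activator, a Mediator subunit and a zinc finger repressor, Leng8, and Erdr1, whose locus has several copies and whose counts are uncertain. Taf10, a subunit of the general factor TFIID (0.85 and 0.53), and the immediate-early gene Fosb (0.41 and 0.48) lay outside the naming rule and are given because the set is small. Only 2 of the 12 genes were above both types with DESeq2, and 1, 2 and 1 of them remained so without the puberty, estrus and diestrus library, and every one kept its direction in these fits. With members no larger than the comparison medians Leng8 and Taok1 turned direction against both types, and of the 7 genes that could be fitted after thinning none passed.

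Of the 30 genes below both types 7 were on the cell cycle list. Cdc20, an activator of the anaphase-promoting complex, was at 15.8, 5.30 and 27.3 normalized CPM, from 14, 3 and 11 counts, against 40.3, 41.2 and 67.4 in progenitor-type and 34.5, 80.8 and 46.6 in mature-type cells. Its log2 fold changes were -1.66 (SE 0.42, adjusted p = 0.012) and -1.72 (SE 0.41, adjusted p = 0.0089). Ccnb2, a mitotic cyclin, was at 18, 5.30 and 17.4, against 29.8, 44.2 and 52.4 and 46.6, 72.7 and 41.9. Both genes were lowest in dual-programme cells in each library. Uhrf1, which maintains DNA methylation at replication, had 2 counts in puberty and none in the adult libraries, with log2 fold changes of -3.24 and -2.90 that depend on the prior count. Tyms, which encodes thymidylate synthase, was at 31.5, 10.6 and 42.3, against 63.9, 45 and 116.5 and 70.4, 59.5 and 67.5. The same direction was found for Cenph of the kinetochore, Knstrn of the spindle, the survivin gene Birc5, the nuclear lamina gene Lmnb1 and Hacl1, a peroxisomal lyase that is not a cell cycle gene. Prdx1, which encodes a peroxiredoxin and was singled out after its values were seen, was the most abundant, at 1569, 1030 and 1208 against 2075, 1637 and 1371 and 2213, 1665 and 1669.

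The cell cycle list moved as a group in value. All 20 genes were tested and all 20 had negative log2 fold changes against both types, with medians of -1.22 and -1.29. Past the threshold were 9 against progenitor-type cells, 12 against mature-type cells and 7 against both. Over all genes tested, 7.87%, 4.99% and 0.349% were lower in the same comparisons. Negative against both in value were 2096 of 8600 genes. The summed level of the list in dual-programme cells was 475.1, 148.4 and 492.4 CPM, and was lowest in estrus. It was 587.6, 516.8 and 1431 CPM in progenitor-type cells and 838.2, 1090 and 994.3 CPM in mature-type cells. As counts per cell, not scaled to totals, it was 3.59, 1.10 and 3.96 in dual-programme cells. Progenitor-type cells held 2.73, 2.16 and 7.66 and mature-type cells 4.44, 5.23 and 5.16, so the puberty value per cell lay between the types. Mki67 and Top2a, a proliferation antigen and a topoisomerase, were in the list without passing either test. By share of cells the picture was less uniform. Cells scored as cycling, with a count of at least 3 of 10 cycle genes, were 11 of the 128 puberty cells (8.59%), 1 of the 71 estrus cells (1.41%) and 5 of the 51 diestrus cells (9.80%), against 7.77%, 4.33% and 17.3% of progenitor-type and 9.45%, 8.69% and 12.1% of mature-type cells. Thinned to 2000 counts, the shares were 4.72%, 0% and 4.0%, against 3.94%, 3.47% and 11.4% and 5.91%, 5.49% and 6.27%. Without cycling cells in any class, 5 genes were below both types, and 2 of the original 30 were among them (2700029M09Rik and Prdx1). Without the estrus library 4 genes were below both, and without the diestrus library 19.

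**Figure D5:**
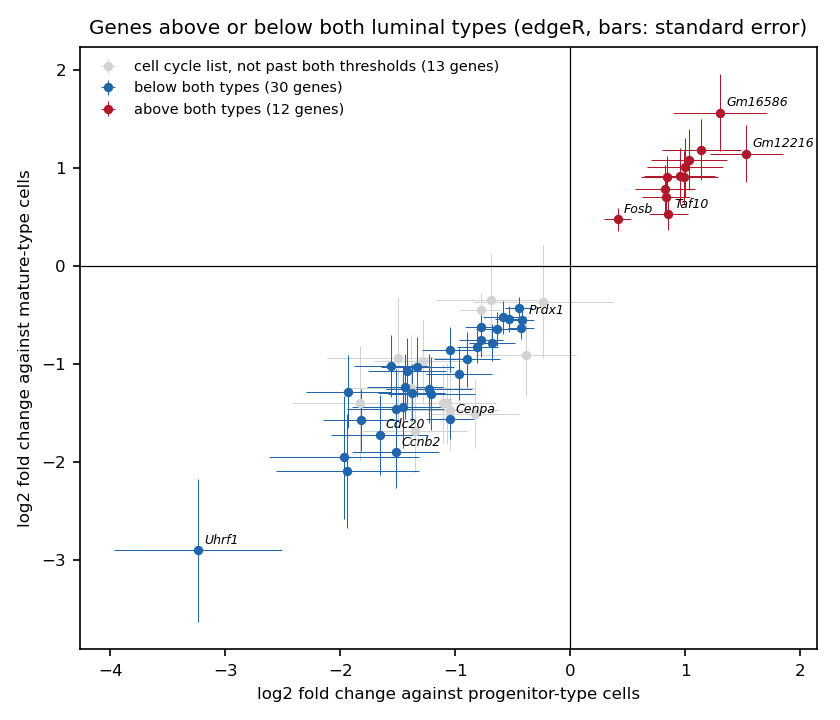
Log2 fold change of dual-programme cells against progenitor-type cells (horizontal) and mature-type cells (vertical) with standard errors as bars, from edgeR; red marks the 12 genes above both types, blue the 30 below both, and grey the 13 other cell cycle genes. The cell cycle genes lie to the lower left, and the 12 genes above both types have log2 fold changes between 0.41 and 1.57.

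Immediate-early and heat shock genes, which rise when tissue is dissociated, were also measured. Of 10 genes, 2 were higher than in progenitor-type cells and 6 higher than in mature-type cells, and none was lower than either. Over all genes tested, 9.50% and 10.0% were higher in these comparisons. Their summed level was 11254, 35627 and 20883 CPM in dual-programme cells, 10037, 29216 and 17125 CPM in progenitor-type cells and 8328, 22540 and 14999 CPM in mature-type cells. The level was therefore highest in dual-programme cells in each library, and in each class it was highest in estrus. Egr1 and Ier2 were higher than in mature-type cells by 1.62 and 1.17 on the log2 scale. The part of this list in the other differences was not tested.

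Markers of other cells were near zero, with exceptions. Of the leukocyte markers 1, 2 and 1 counts were found in all dual-programme cells of puberty, estrus and diestrus, and Ptprc and Cd3e had none. Of the endothelial markers Pecam1 alone was counted, 6, 3 and 2 times, with Cdh5 and Kdr at 0. Of the fibroblast markers Dcn had 183, 101 and 114 counts while Col1a1, Col1a2, Col3a1 and Lum had none. Dcn was at 206.1, 178.4 and 283.4 normalized CPM, between 5.64, 0.763 and 1.31 in progenitor-type and 348.4, 209.4 and 742.5 in mature-type cells, so it followed the mature genes. Hba-a1, a haemoglobin gene, did likewise, with 33.8, 12.4 and 164.1 against 0.257, 3.81 and 1.96 and 64.5, 20.1 and 505.6. Basal genes outside the rule summed to 26.9, 81.8 and 60.9 CPM, against 40.6, 70.2 and 114.3 CPM in progenitor-type and 32.5, 52.7 and 63.6 CPM in mature-type cells.

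The stages were compared within dual-programme cells as levels with counting intervals only. Some genes named by rank moved alike in every class. The ratio of diestrus to estrus for Rpl41 was 7.63 in dual-programme, 7.04 in progenitor-type and 6.51 in mature-type cells. For Gm10116 it was 0.0229, 0.0434 and 0.0652 in the same order. The milk gene Csn1s2a, which encodes an alpha-casein, was at 6043 CPM in puberty, 2527 in estrus and 472.9 in diestrus. The ratio of diestrus to estrus was 0.187 (95% interval 0.160 to 0.218) in dual-programme cells and 0.128 in progenitor-type cells. Csn2 stood at 3414, 823.8 and 738.6 CPM and Csn3 at 3944, 3157 and 2391 CPM. Csn1s1, another alpha-casein gene, was at 1449, 1235 and 1185 CPM. These 4 genes were highest in puberty in dual-programme cells, and so were the others in progenitor-type cells, but not Csn1s1, at 3927, 3968 and 2333 CPM.

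Rspo1, which encodes a Wnt agonist of luminal progenitors, had no count in the puberty and estrus cells, where the floor of 3 counts for a count of 0 is 3.11 and 5.71 CPM, and 31 counts in diestrus, at 75.6 CPM, against 136.1 CPM in diestrus progenitor-type cells. It was found in 9 of 51 diestrus cells, and all 9 also had a count of Areg, as had all 7 mature-type and 4 of 66 progenitor-type diestrus cells with Rspo1. Calca, a calcitonin gene, likewise had 13 counts in diestrus and none in the other libraries, in 4 of 51 cells, against 139 of 630 mature-type cells. Tnfsf11 had 0, 2 and 6 counts, the diestrus ones in 6 of 51 cells against 118 of 630 mature-type cells. Rspo1 met Tnfsf11 in 3 diestrus cells and Calca in 3, so diestrus genes of both compartments occurred in the same barcodes. Areg was at 1454, 215 and 455.8 CPM, with a ratio of diestrus to estrus of 2.12 (1.67 to 2.70) beside 2.71 in mature-type cells. Pgr was at 30.0, 11.4 and 41.4 CPM, with a ratio of 3.63 (1.37 to 11.2) beside 1.39. Cav1, which encodes the scaffold protein of caveolae, was at 49.7, 121.8 and 12.2 CPM, with a ratio of 0.100 beside 0.269 in mature-type cells.

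Among the genes ranked as higher in puberty, Fst, which encodes the activin antagonist follistatin, had 78 counts in puberty, 0 in estrus and 1 in diestrus. Krt6a, a keratin gene of growing ducts, had 58, 1 and 1, and Krt4, another keratin gene, had 58, 0 and 1. In mature-type cells Fst was at 176.7, 37.6 and 26.6 CPM, so the direction was the same. Igfbp7, which encodes a secreted binding protein of insulin-like growth factors, was lower in puberty, at 7.25 CPM against 49.5 and 43.9, and so it was in progenitor-type cells, at 26.1 against 110.2 and 45.6. Immediate-early genes were also lower in puberty, with Dusp1 at 306.4, 974.2 and 845.8 CPM and Ier2 at 1118, 3497 and 2740 CPM. Stage, library and the pool of animals cannot be told apart in any of these values.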

How the data were processed

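The deposited counts were unique molecular identifier counts per gene and barcode, made by the authors with Cell Ranger 2.0 on mm10 per the submitters' processing notes, for 27998 genes. Gene and barcode lists were used as labels. The members and gene lists were chosen with earlier results of these data known. No barcode was removed before the rule was applied. Counts of each class and library were summed, and the 9 sums were tested with edgeR 4.0.16 (R 4.3.3; filterByExpr, TMM, quasi-likelihood F test, library as a term, Benjamini-Hochberg adjustment over all genes), with DESeq2 1.42.0 as an alternative. Each class had 1 sum per library, from cells of pooled animals. The p-values therefore set a class difference against its spread over 3 libraries of different stages, after the library term. The fit was run on simulated counts that shared the same mean profile, with chosen genes changed in the dual-programme sums. The simulation held no difference between the other types or between stages, so it does not check the calls in these data. Genes outside the lists were named by rank: per comparison and direction 5 by lowest adjusted p, changed at least 1 on the log2 scale and alike in all 3 libraries; 10 above and 10 below both types by their smaller change; and between stages 5 per direction by the distance of the ratio interval from 1, with at least 20 counts. Doublets were scored with Scrublet (scanpy 1.11.5) and kept. Proportions carry exact Clopper-Pearson intervals, levels exact Poisson intervals and ratios conditional binomial intervals, all at 95% and for counting error only. Droplets also hold free RNA, so a count need not come from the cell. Depth was 25365324, 10962454 and 11868593 counts in puberty, estrus and diestrus. Overlapping genes were not resolved. Results for some genes are not reported here.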

Additional observations from a re-analysis of the deposited data

Results flagged for a closer look

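The second puberty table, which was used only as an alternative to the first because it shares its barcodes, held 97 dual-programme cells by the same rule, and 81 of them were dual-programme cells in the first table too (83.5% of the 97 and 63.3% of the 128). The 128 cells held 966146 counts in the first table and 635353 in the second, where 41 of them fell in no class. The second table was singled out because it lies outside the main measurement. The part of depth in the difference was not tested.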

How the results depend on the processing

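Each share of barcodes depended on depth and on the limits of the rule. After thinning it was a share of the cells with at least that many counts. In puberty, estrus and diestrus it was 0.455%, 0.634% and 0.665% after thinning to 2000 counts, 1.37%, 2.03% and 1.17% at 3000 counts, 1.86%, 1.65% and 1.31% with no basal gene, 0.516%, 1.17% and 0.779% with 4 genes of each luminal list, 0.718%, 0.879% and 0.738% with 2 counts per gene, and 0.332%, 0.293% and 0.410% for cells no larger than the comparison medians. In puberty it was 1.96% without Scrublet doublets, 3.18% among cells with at least 1000 genes and 1.80% in the second table. The progenitor share of lineage counts was 52.4%, 34.0% and 36.4% from the rule genes.

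The counts of genes are given in the order higher and lower than progenitor-type cells, higher and lower than mature-type cells, above both and below both. Without the library term they were 357, 100, 474, 29, 0 and 2, after thinning 377, 294, 431, 137, 1 and 5, and with members no larger than the comparison medians 141, 439, 229, 489, 1 and 163. At an adjusted p under 0.01 they were 491, 324, 582, 145, 0 and 7. Leaving out 1 library at a time gave 492 to 644, 284 to 494, 573 to 718, 151 to 264, 2 to 4 and 4 to 33. Without the low-count filter 880 genes were lower than in mature-type cells and 98 below both. Above both were 2 genes by DESeq2, 3 with no basal gene and 7 without cycling cells, which left 5 below both. The cause was not tested.

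Directions turned in 11 values. Without cycling cells Cenpa against progenitor-type cells was 1.01 and H2afz against mature-type cells 0.10 (log2). With members no larger than the comparison medians Leng8 was -0.48 and -0.50 and Taok1 -1.14 and -1.25 against progenitor-type and mature-type cells, Krt18 -0.56, Bcl11a -1.85 and Igf1r -5.62 against mature-type cells, and Krt19 -0.24 and Sox9 -0.03 against progenitor-type cells. Classes were compared within libraries through the library term, the only block in the main model. Stages could not be paired, because the labels number no replicates across stages.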
